A study of Mus musculus with 12 samples.

Results

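Unstimulated splenic B cells labelled Chd4 knockout (KO) were compared with unstimulated splenic B cells labelled wild type (WT), in mice. The comparison used 6 of the 12 RNA-seq libraries of the study, chosen by 2 labels, the genotype and the 0 hr condition: WT replicates 1, 2 and 3 and KO replicates 4, 5 and 6. The other 6 libraries came from the same genotypes after 48 hr of culture. The culture held lipopolysaccharide (LPS, 10 µg/ml) and mouse interleukin 4 (IL-4, 25 ng/ml). Here these libraries entered the low-count filter, the scaling and the estimate of the spread. They were read afterwards as a separate look at the same genes. Neither group at 0 hr received LPS or IL-4. Strain, age, sex, the Cre driver, the deleted part of Chd4 and the alleles that the WT mice carry are not given in the sources used here. The labels do not say whether libraries came from separate animals, so p-values reflect only the spread among these libraries, which may be technical. RNA was amplified with a low-input SMART-Seq kit, which does not mark strand, and read as paired ends, per the labels' protocols.

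CHD4 is the motor of NuRD, a complex that joins nucleosome remodelling to histone deacetylation: it uses ATP to move nucleosomes, and its partners remove acetyl groups from histones and read methylated DNA. The complex can hold genes silent and can also keep active genes in tune. Resting splenic B cells are mostly recirculating follicular cells, with a smaller marginal zone population that lines the marginal sinus and responds quickly to blood-borne antigens. Both keep a low, tonic level of interferon-inducible genes while unstimulated.

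Values below are CPM, counts per 1000000 counts of the TMM-scaled library, in the order WT replicates 1, 2 and 3 and KO replicates 4, 5 and 6, and a log2 fold change is the fitted KO over WT difference. Chd4 itself (chromosome 6, 125095981 to 125130591 in the mm10 build, as for all positions below) stood at 99.4, 68.1 and 92.8 CPM in WT and 100, 70.6 and 92.8 CPM in KO. Its groups overlapped (edgeR log2 fold change 0.02, SE 0.22, adjusted p = 0.99), with an exact two-sided permutation p of 0.8, where 0.1 is the smallest that 3 against 3 can give. Counts cover the whole transcript, so reads outside a deleted part would still be counted. Whether that bears on the Chd4 values was not tested, and each direction below is one between libraries labelled KO and WT. Chd4 RNA was lower in the KO label at 48 hr, at 102, 96.1 and 123 CPM in WT and 51.3, 38.8 and 74.7 CPM in KO (edgeR log2 fold change -0.96, SE 0.22, adjusted p = 0.038). Xist was at 293, 218 and 266 CPM in WT and 1.56, 1.59 and 1.56 CPM in KO, and the Y-linked Ddx3y at 23.5, 26.2 and 28.3 CPM in WT and 139, 91.8 and 129 CPM in KO. The Y-linked Eif2s3y was at 15.6, 14.5 and 15.02 CPM in WT and 78.8, 68.6 and 74.6 CPM in KO. Uty, also Y-linked, was at 8.21, 9.745 and 8.96 CPM in WT and 29.96, 31.1 and 32.5 CPM in KO. Each WT library thus held Xist and Y-linked RNA together. Whether a WT library mixed animals of both sexes was not tested. Sex-linked transcripts therefore moved with the label in all 6 libraries, their part in the autosomal differences cannot be told apart from the genotype, and the 14 X- or Y-linked genes called are left out below.

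The 6 libraries held 38956484 to 53189198 estimated counts. The biological coefficient of variation fitted by edgeR was 17.7% in WT and 31.1% in KO. On the first principal component of the 6 libraries (32% of the variance) WT lay at 24.9 to 33.2, KO replicates 4 and 5 at -52.7 and -49.2, and KO replicate 6 at 13.7, toward WT. The B cell label held: the summed level of 19 B cell identity genes was 29900 to 33000 CPM in WT and 29200 to 34800 CPM in KO, and 0 of the 19 passed the edgeR test (DESeq2 called 1 and limma-voom 0, and 7 had an unadjusted p below 0.05). Markers of other cells were present in both groups. The 10 erythroid genes summed to 685 to 978 CPM in WT and to 3665, 366 and 961 CPM in KO replicates 4, 5 and 6. The 21 monocyte and macrophage genes summed to 237 to 470 CPM in WT and to 352, 681 and 237 CPM in KO. The 14 neutrophil genes summed to 46.8 to 79.4 CPM in WT and to 36.9, 182 and 13.4 CPM in KO, with Ly6g below the test's count filter. The 20 T cell genes summed to 216 to 272 CPM in WT and to 259 to 285 CPM in KO, and the 13 NK cell genes to 28.1 to 40.2 and 29.4 to 76.1 CPM. Over these 5 lists 1 gene was called, where 1.14% of all autosomal genes were. It was the T cell kinase gene Zap70, at 1.39, 0.810 and 1.44 CPM in WT and 4.42, 7.90 and 2.72 CPM in KO (edgeR log2 fold change 2.04, SE 0.44, adjusted p = 0.041). Zap70 lost its call in 10 of 12 leave-one-out fits (adjusted p = 0.053 to 0.16), all but those lacking KO 0 hr replicate 6 or KO 48 hr replicate 12. Most members of these lists had a positive log2 fold change: 9 of 10 erythroid genes (median 1.05), 17 of 21 monocyte and macrophage genes (0.37), 10 of 14 neutrophil genes (0.39), 14 of 20 T cell genes (0.47) and 11 of 13 NK cell genes (0.51), against 51.8% and a median of 0.01 for all autosomal genes. The part of these cells in the results was not tested.

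Of 16015 autosomal genes tested, 183 (1.14%) passed edgeR's quasi-likelihood test at an adjusted p below 0.05. In KO 116 were higher (0.724%) and 67 lower (0.418%), and 1808 (11.3%) had an unadjusted p below 0.05. These shares of all autosomal genes stand beside every count of list members given here. The 3 KO libraries lay outside the range of the 3 WT libraries for all 183, as they did for 15.1% of all autosomal genes. The genes that rose had a median log2 fold change of 1.29, and 33 of the 116 were beyond 2 on the log2 scale. The genes that fell had a median of -0.93, with 10 of 67 beyond 2, while the median of all autosomal genes was 0.01. The median level in the higher group was 45.5 CPM for genes that fell and 19.0 CPM for genes that rose. KO replicate 6 was the KO library nearest to the WT mean for 66 of the 116 risers, replicate 4 for 29 and replicate 5 for 21. Among the 67 fallers the nearest was replicate 6 for 26, replicate 5 for 25 and replicate 4 for 13. The plot of fold change against level shows both sets.

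**Figure D1:**
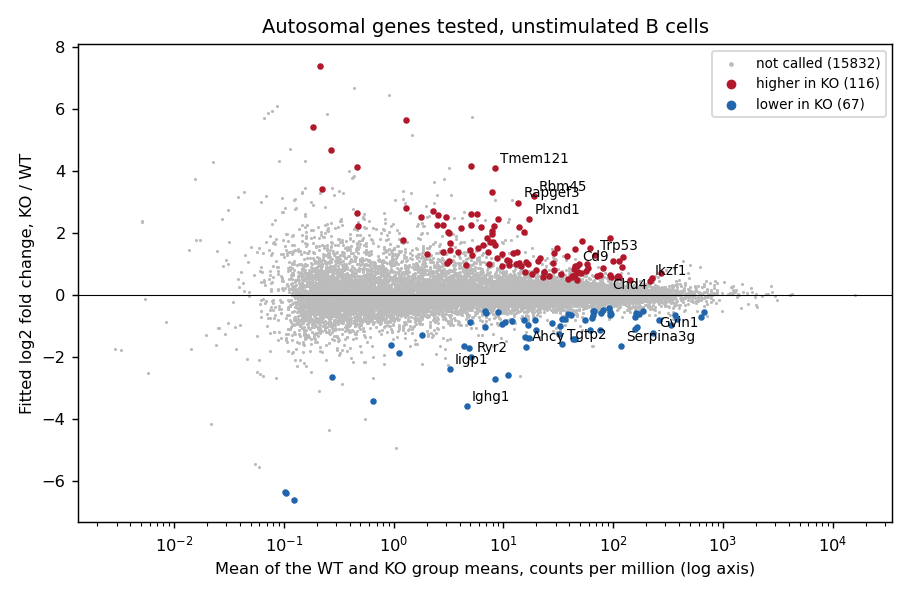
Fitted log2 fold change (KO over WT) of each autosomal gene tested against the mean of its 2 group means in CPM, on a log axis. Red points are the 116 genes called higher and blue points the 67 called lower in KO by edgeR, grey points those not called; of the labelled genes, Tmem121 is highest at 4.07 and Ighg1 lowest at -3.59, and Chd4 lies on the zero line.

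The number of calls depended on single libraries. In leave-one-out fits, each without 1 of the 12 libraries, it was 88, 118 and 64 in the fits that lacked WT 0 hr replicates 1, 2 and 3, 114 without WT 48 hr replicate 7, and 374 without KO 0 hr replicate 6, with 165 of the 183 among the 374. A fit of the 6 libraries at 0 hr alone called 62 genes (0.404%), of which 55 were among the 183. With any 1 of the 12 libraries left out 56 genes kept their call, 32 higher and 24 lower, and 40 of them also passed with the 6 libraries alone, with DESeq2 (which called 4.13% of autosomal genes), with limma-voom (1.29%) and with edgeR's likelihood ratio test (3.05%).

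Of 42 tested interferon-stimulated genes 4 fell and 0 rose, 34 had a negative log2 fold change, and the list's median was -0.23, against 0.01 for all autosomal genes, 51.8% of which were positive. Irf9, Irf1 and Cxcl10 were 3 of the 4. Irf9, the DNA-binding subunit of the type I interferon response complex (chromosome 14, 55603571 to 55610030), was at 108, 126 and 112 CPM in WT and 74.3, 74.3 and 75.8 CPM in KO (edgeR log2 fold change -0.62, SE 0.10, adjusted p = 0.0076). The KO libraries of Irf9 were nearly alike. Irf1, an interferon-induced gene that itself encodes a transcription factor (chromosome 11, 53770014 to 53778374), was at 207, 241 and 217 CPM in WT and 136, 173 and 159 CPM in KO (edgeR log2 fold change -0.51, SE 0.11, adjusted p = 0.044). The chemokine gene Cxcl10 was barely expressed, at 1.28, 1.86 and 1.20 CPM in WT and 0.304, 0.678 and 0.412 CPM in KO (edgeR log2 fold change -1.62, SE 0.29, adjusted p = 0.015). Of the most abundant members not called, Irf8 had 628, 643 and 648 CPM in WT and 501, 565 and 595 CPM in KO (edgeR log2 fold change -0.21, adjusted p = 0.46), and Ciita, the master regulator of MHC class II genes, 436, 448 and 458 CPM in WT and 282, 375 and 414 CPM in KO (edgeR log2 fold change -0.33, adjusted p = 0.35). Psmb8, an immunoproteasome subunit, overlapped between the groups (edgeR log2 fold change 0.03, adjusted p = 0.98), and the peptide transporter gene Tap1 did not, at 292, 328 and 321 CPM in WT and 178, 243 and 221 CPM in KO (edgeR log2 fold change -0.55, adjusted p = 0.063). Irf9 held in all 12 leave-one-out fits. Cxcl10 lost its call without KO 0 hr replicate 4 (adjusted p = 0.052) or WT 0 hr replicate 2 (adjusted p = 0.062). Irf1 lost its call in 10 of 12 leave-one-out fits (adjusted p = 0.059 to 0.13), all but those lacking KO 0 hr replicate 5 or KO 48 hr replicate 12. None of these 3 passed with the 6 libraries at 0 hr alone (adjusted p = 0.077, 0.24 and 0.14 for Irf9, Irf1 and Cxcl10).

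Interferon-inducible GTPases attack the vacuoles of intracellular pathogens. Of 17 tested members of the immunity-related and guanylate-binding families 4 fell and 1 rose, 15 had a negative log2 fold change, and the median was -0.52. Tgtp1 and Tgtp2 are neighbouring, near-identical genes (chromosome 11, 49057194 to 49064206 for Tgtp2), and how reads divide between them is uncertain. Tgtp1 was at 57.2, 72.9 and 58.02 CPM in WT and 17.2, 24.5 and 29.3 CPM in KO (edgeR log2 fold change -1.41, SE 0.17, adjusted p = 0.00072), and Tgtp2 at 48.3, 63.5 and 41.6 CPM in WT and 15.02, 16.2 and 19.8 CPM in KO (edgeR log2 fold change -1.59, SE 0.16, adjusted p = 0.00013). For both genes the highest KO library lay far below the lowest WT library. Iigp1 was at 5.88, 5.97 and 4.52 CPM in WT and 1.12, 1.16 and 0.853 CPM in KO (edgeR log2 fold change -2.39, SE 0.23, adjusted p = 0.00011) and the guanylate-binding Gbp6 (chromosome 5, 105270702 to 105293698) at 19.5, 26.6 and 22.2 CPM in WT and 5.89, 10.7 and 9.87 CPM in KO (edgeR log2 fold change -1.37, SE 0.20, adjusted p = 0.0042). The member that rose was Gbp2b (chromosome 3, 142594847 to 142619179), a scarce paralog of Gbp2, at 0.211, 1.03 and 0.597 CPM in WT and 3.78, 5.78 and 2.37 CPM in KO (edgeR log2 fold change 2.71, SE 0.41, adjusted p = 0.0048). All 5 calls held in all 12 leave-one-out fits. With the 6 libraries alone Gbp6 and Gbp2b did not pass (adjusted p = 0.064 and 0.1). Among abundant members that did not pass, Gbp3 was at 76.7, 117 and 91.1 CPM in WT and 58.8, 70.7 and 58.8 CPM in KO (edgeR log2 fold change -0.60, adjusted p = 0.059), Irgm1, which restrains the other family members, at 93.8, 125 and 93.9 CPM in WT and 74.96, 90.8 and 86.4 CPM in KO (edgeR log2 fold change -0.31, adjusted p = 0.38), and Gbp9 and Gbp4 overlapped between the groups (edgeR log2 fold change -0.01, adjusted p = 0.99, and edgeR log2 fold change -0.15, adjusted p = 0.7).

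The most abundant faller of this kind was Gvin1, an interferon-inducible very large GTPase (chromosome 7, 106156556 to 106215326). Its level was 330.2, 315 and 331 CPM in WT and 141, 141 and 140.1 CPM in KO (edgeR log2 fold change -1.21, SE 0.09, adjusted p = 8.1e-06), and the libraries within each group were nearly alike. Of the 5 transcript models of Gvin1, uc033jbj.1 was at 27.8 CPM in KO replicate 5 and 0 in KO replicates 4 and 6. The models uc009izn.1 and uc009izp.1 had the same values, and the split of reads among models is uncertain. Trim34a, an interferon-inducible TRIM gene singled out after its values were seen (chromosome 7, 104244457 to 104262234), was at 197, 248 and 197 CPM in WT and 101, 108 and 94.1 CPM in KO (edgeR log2 fold change -1.08, SE 0.11, adjusted p = 0.00011). Both held in all 12 leave-one-out fits, with the 6 libraries alone, and by DESeq2, limma-voom and the likelihood ratio test. In the Schlafen family, growth-regulatory genes induced by interferon and listed here after values were seen, Slfn9 fell and Slfn10-ps, a pseudogene beside it, rose, of 9 tested. Slfn9 was at 42.9, 42.7 and 45.8 CPM in WT and 17.7, 20.4 and 27.9 CPM in KO (edgeR log2 fold change -0.99, SE 0.15, adjusted p = 0.0042) and Slfn10-ps at 18.1, 17.2 and 17.03 CPM in WT and 29.7, 29.4 and 28.5 CPM in KO (edgeR log2 fold change 0.74, SE 0.14, adjusted p = 0.021). They lie together on chromosome 11, so shared reads are possible. The most abundant member, Slfn2, was at 376, 403 and 348 CPM in WT and 239, 193 and 322 CPM in KO and did not pass (edgeR log2 fold change -0.58, adjusted p = 0.17). Slfn10-ps lost its call without WT 0 hr replicates 1, 2 or 3 or KO 0 hr replicates 4 or 5 (adjusted p = 0.052 to 0.11).

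**Figure D2:**
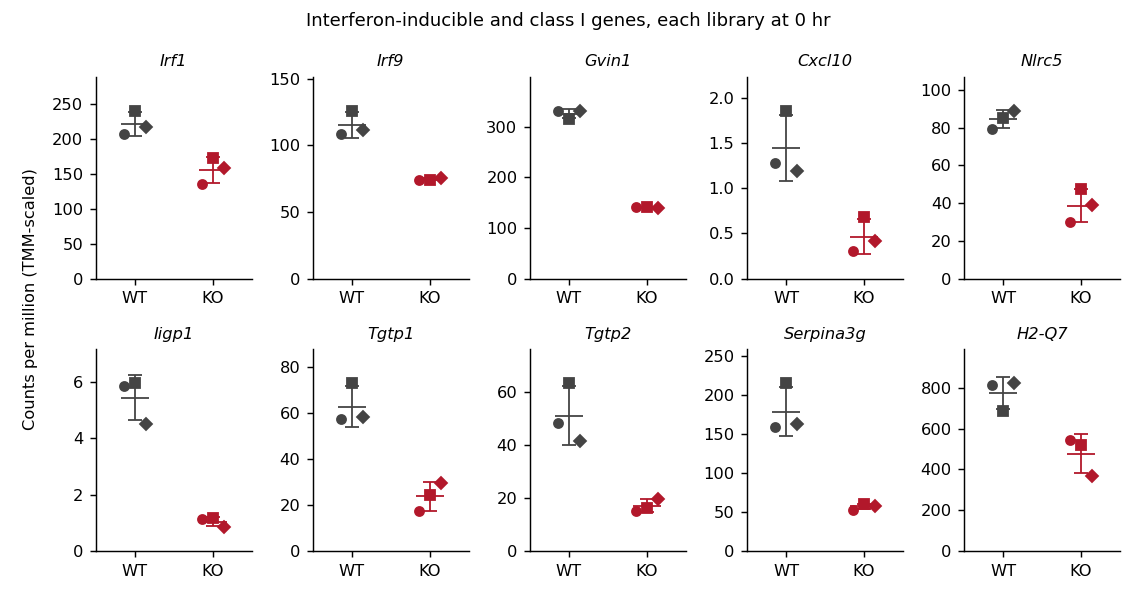
Level in CPM (TMM-scaled, linear axes from 0) of 10 genes in each library at 0 hr: WT replicates 1, 2 and 3 (grey) and KO replicates 4, 5 and 6 (red) as circle, square and diamond, with the group mean and SD (n = 3). In each panel the 3 KO libraries lie below the 3 WT libraries, closest in ratio for Irf1, where the lowest WT library is at 207 CPM and the highest KO library at 173 CPM.

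MHC class I molecules show peptides of intracellular proteins to CD8 T cells. A list of class I genes and of the machinery that loads them, written after values were seen, had 27 tested members, of which 6 fell and 0 rose, with 22 negative and a median log2 fold change of -0.34. Nlrc5, the transactivator of class I genes (chromosome 8, 94434356 to 94527272), was at 79.6, 85.3 and 89.1 CPM in WT and 29.8, 47.3 and 38.9 CPM in KO (edgeR log2 fold change -1.13, SE 0.19, adjusted p = 0.0088). It held in all 12 leave-one-out fits. The nonclassical H2-Q7 (chromosome 17, 35439155 to 35443773) was at 817, 686 and 824 CPM in WT and 545, 522 and 366 CPM in KO (edgeR log2 fold change -0.70, SE 0.14, adjusted p = 0.028). H2-Q6, a neighbouring paralog, was at 463, 387 and 477 CPM in WT and 311, 311 and 229.6 CPM in KO (edgeR log2 fold change -0.64, SE 0.13, adjusted p = 0.035). KO replicate 6 was the lowest library for both. H2-Q5 (edgeR log2 fold change -0.74, adjusted p = 0.0076), H2-T10 (edgeR log2 fold change -0.65, adjusted p = 0.02) and H2-M3 (edgeR log2 fold change -0.42, adjusted p = 0.049) also fell. The H2-Q genes are near-identical, and the split of reads among them is uncertain. The classical class I genes were not called. H2-K1 was at 2300, 2199 and 2205 CPM in WT and 1947, 1738 and 1629 CPM in KO (edgeR log2 fold change -0.34, adjusted p = 0.15) and H2-D1 at 3406, 3121 and 3373 CPM in WT and 3080, 3055 and 2762 CPM in KO (edgeR log2 fold change -0.15, adjusted p = 0.65), without overlap between groups, while B2m, their shared light chain, overlapped (edgeR log2 fold change -0.29, adjusted p = 0.57). The count of 6 became 2 and 1 when WT 0 hr replicates 1 and 3 were left out in turn, 3 without any of the WT 48 hr replicates 7, 8 and 9, and 1 with the 6 libraries alone. H2-Q7 lost its call without WT 0 hr replicates 1 or 3 or WT 48 hr replicates 7, 8 or 9 (adjusted p = 0.06 to 0.13). H2-Q6 lost its call without WT 0 hr replicates 1 or 3, KO 0 hr replicate 6, WT 48 hr replicates 7, 8 or 9 or KO 48 hr replicate 10 (adjusted p = 0.062 to 0.16). H2-M3 lost its call in 10 of 12 leave-one-out fits (adjusted p = 0.076 to 0.2), all but those lacking KO 0 hr replicate 4 or KO 48 hr replicate 12. H2-T10 lost its call without WT 0 hr replicates 1 or 3 or KO 0 hr replicate 5 (adjusted p = 0.055 to 0.11). H2-Q5 lost its call without WT 0 hr replicate 3 (adjusted p = 0.052).

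The promoters of 4 of these fallers are shown because they carry the sequences that STAT and IRF factors are known to bind. They run from 250 bases before to 50 after the start site, 5′ to 3′ on the gene's strand, from RefSeq on GRCm38.p6. Capitals mark matches to an interferon-stimulated response element (here called ISRE: GAAA, any 2 bases, GAAA, on either strand) and to TTCNNNGAA (a gamma-activated site, GAS, which reads the same on both strands). The 2 motifs in Tgtp2 stand beside each other. In Trim34a the ISRE reads on the opposite strand and lies past the start site.
Tgtp2 (chr11:49064163-49064462, minus strand; a GAS, then an ISRE): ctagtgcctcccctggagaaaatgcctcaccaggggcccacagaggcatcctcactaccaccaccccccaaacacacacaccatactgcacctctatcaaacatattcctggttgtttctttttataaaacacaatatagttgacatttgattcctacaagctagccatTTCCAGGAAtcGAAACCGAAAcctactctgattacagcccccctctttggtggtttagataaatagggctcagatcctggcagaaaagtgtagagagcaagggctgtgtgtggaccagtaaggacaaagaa
Cxcl10 (chr5:92348840-92349139, minus strand; an ISRE): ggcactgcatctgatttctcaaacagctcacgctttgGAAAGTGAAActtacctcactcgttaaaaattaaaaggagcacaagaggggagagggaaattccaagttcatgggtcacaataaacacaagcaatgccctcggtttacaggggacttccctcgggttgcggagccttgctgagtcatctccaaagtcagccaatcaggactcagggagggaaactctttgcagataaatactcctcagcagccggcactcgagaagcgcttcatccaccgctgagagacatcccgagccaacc
Trim34a (chr7:104244207-104244506, plus strand; an ISRE): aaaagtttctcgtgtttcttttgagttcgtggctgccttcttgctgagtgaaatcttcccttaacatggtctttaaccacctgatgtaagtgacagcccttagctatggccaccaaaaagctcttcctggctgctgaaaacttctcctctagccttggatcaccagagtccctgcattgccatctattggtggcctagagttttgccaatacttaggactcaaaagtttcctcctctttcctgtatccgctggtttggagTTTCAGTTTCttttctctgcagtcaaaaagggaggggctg
Irf1 (chr11:53769764-53770063, plus strand; a GAS): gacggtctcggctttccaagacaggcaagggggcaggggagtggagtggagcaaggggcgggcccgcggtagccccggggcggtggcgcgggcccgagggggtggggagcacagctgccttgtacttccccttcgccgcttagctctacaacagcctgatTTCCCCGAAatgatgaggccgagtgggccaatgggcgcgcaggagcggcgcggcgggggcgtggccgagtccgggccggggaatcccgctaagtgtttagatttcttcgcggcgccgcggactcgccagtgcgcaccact

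Promoters were matched by symbol for 45 of the 67 fallers, 91 of the 116 risers and 11961 of all autosomal genes tested. An ISRE stood in 8 of the 45 fallers (17.8%), 2 of the 91 risers (2.2%) and 3.9% of all matched genes, and in 3.44% of all 32851 promoters of the table. The 8 were Cxcl10, Fam169b, Fastkd1, Slfn9, Stat4, Tgtp1, Tgtp2 and Trim34a. A GAS stood in 11 of the 45 fallers (24.4%), 10 of the 91 risers (11%) and 8.75% of all matched genes (8.3% of all promoters). Those 11 included Irf1, H2-M3, Serpina3f, Serpina3g, Serpina3i, Tgtp1 and Tgtp2. Tgtp1 and Tgtp2, and the Serpina3 genes, are near copies of each other and not separate cases. These 2 motifs are 2 of 9 searched on both strands, chosen with the expression results known, and a match is a description of letters, not a bound site. The others were a longer ISRE with 3 GAAA repeats, the PU.1 and IRF composite (GGAA, any 2 bases, GAAA), a kB site (GGGA, any 4 bases, CC), the cyclic AMP response element TGACGTCA, the E-box CACGTG, the RBPJ site GTGGGAA and the CCAAT box. The longer ISRE contains the ISRE, and the composite differs from the ISRE in its second base. A kB site stood in 40% of fallers, 37.4% of risers and 29.3% of all matched genes. GTGGGAA, the site of the Notch factor RBPJ, stood in 2.22% of fallers, 9.89% of risers and 7.36% of all. The CCAAT box stood in 55.6%, 52.7% and 42.2% of the same sets, and the E-box in 13.3%, 15.4% and 10.8%. The cyclic AMP response element stood in 0%, 2.2% and 3.33%, the composite in 4.44%, 0% and 2.98%, and the longer ISRE in 0%, 0% and 0.176%.

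The Serpina3 genes are a cluster of serine protease inhibitor genes on chromosome 12. Of 5 tested 4 fell and 0 rose, with a median log2 fold change of -2.63. Serpina3g (chromosome 12, 104236245 to 104241939), an inhibitor of cathepsins in lymphocytes, was by far the most abundant, at 159, 216 and 163 CPM in WT and 53.1, 60.5 and 57.8 CPM in KO (edgeR log2 fold change -1.65, SE 0.13, adjusted p = 1.3e-05). Serpina3f was at 14.7, 14.96 and 13.6 CPM in WT and 1.52, 3.62 and 1.49 CPM in KO (edgeR log2 fold change -2.70, SE 0.27, adjusted p = 0.00013). Serpina3i was scarce, at 0.368, 0.731 and 0.334 CPM in WT and 0.0380, 0.139 and 0.0441 CPM in KO (edgeR log2 fold change -2.63, SE 0.49, adjusted p = 0.019). Serpina3h had 33 estimated counts in all WT libraries together and 0 in KO, which is at least 12.4-fold lower taking a floor of 3 counts for each group (edgeR adjusted p = 0.016). The paralogs are similar, and the split of reads among them is uncertain. Serpina3g and Serpina3f held in all 12 leave-one-out fits. Serpina3i lost its call without KO 0 hr replicate 4 (adjusted p = 0.069) or WT 0 hr replicate 2 (adjusted p = 0.073). Serpina3h lost its call without WT 0 hr replicate 2 (adjusted p = 0.053) or WT 0 hr replicate 3 (adjusted p = 0.051).

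Heavy-chain constant regions mark the isotype that a B cell transcribes, and 1 of 5 tested fell. Ighg1, the IgG1 constant region (chromosome 12, 113325240 to 113330523), was at 8.56, 9.76 and 7.38 CPM in WT and 0.380, 0.631 and 1.07 CPM in KO (edgeR log2 fold change -3.59, SE 0.33, adjusted p = 5.1e-05). It held in all 12 leave-one-out fits. Ighg2c, the IgG2c region, was at 28.8, 23.4 and 21.2 CPM in WT and 0.475, 2.97 and 8.39 CPM in KO, without overlap, and did not pass (edgeR log2 fold change -2.62, adjusted p = 0.071). Igha, the IgA region, overlapped at 236, 296 and 293 CPM in WT and 317, 1170 and 266 CPM in KO (edgeR log2 fold change 1.09, adjusted p = 0.35), with KO replicate 5 far above the rest. Ighd, the IgD region of naive cells, was at 2171, 2691 and 2063 CPM in WT and 1623, 1544 and 2085 CPM in KO (edgeR log2 fold change -0.40, adjusted p = 0.56). Tbx21, which encodes T-bet, a factor of IgG2c switching and of age-associated B cells, was at 19.7, 30.7 and 21.9 CPM in WT and 5.98, 8.60 and 11.7 CPM in KO, also without overlap and not called (edgeR log2 fold change -1.46, adjusted p = 0.055).

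Marginal zone B cells are marked by lipid presentation, complement receptors and Notch signalling. Of 20 tested marginal zone genes 6 rose and 0 fell, 16 had a positive log2 fold change, and the median was 0.63. The marker lists of erythroid, NK, T and macrophage cells also had positive medians in these libraries (1.05, 0.51, 0.47 and 0.37), and their part in the marginal zone values was not tested. Cd1d1 (chromosome 3, 86995834 to 86999441), which presents lipids to natural killer T cells and is high on marginal zone cells, was at 71.2, 70.05 and 76.6 CPM in WT and 112, 122 and 108 CPM in KO (edgeR log2 fold change 0.65, SE 0.11, adjusted p = 0.01). Cd9, a tetraspanin of marginal zone and plasma cells (chromosome 6, 125460266 to 125494791), was at 29.9, 41.8 and 25.02 CPM in WT and 62.4, 70.6 and 50.2 CPM in KO (edgeR log2 fold change 0.92, SE 0.18, adjusted p = 0.022). Cd36, a scavenger receptor that macrophages also carry, was at 38.7, 50.9 and 33.6 CPM in WT and 178, 183 and 75.9 CPM in KO (edgeR log2 fold change 1.82, SE 0.37, adjusted p = 0.03). KO replicate 6 lay between the other KO libraries and WT for all 3. Plxnd1, a semaphorin receptor, was at 2.49, 8.24 and 5.48 CPM in WT and 24.4, 43.3 and 19.5 CPM in KO (edgeR log2 fold change 2.43, SE 0.36, adjusted p = 0.0046). Marcks, an actin-binding substrate of protein kinase C, was at 72.4, 80.8 and 65.2 CPM in WT and 157, 181 and 126 CPM in KO (edgeR log2 fold change 1.09, SE 0.21, adjusted p = 0.023). Zc3h12c, an RNase that degrades inflammatory mRNAs, was at 8.20, 5.47 and 6.80 CPM in WT and 12.8, 13.7 and 17.7 CPM in KO (edgeR log2 fold change 1.11, SE 0.22, adjusted p = 0.027), and here KO replicate 6 was the highest library. Of the abundant members that did not pass, Dtx1, a Notch target, was at 198, 236 and 238 CPM in WT and 279, 354 and 276 CPM in KO (edgeR log2 fold change 0.44, adjusted p = 0.2) and Mzb1, a chaperone of IgM secretion, at 213, 227 and 184 CPM in WT and 390.4, 278 and 259 CPM in KO (edgeR log2 fold change 0.57, adjusted p = 0.091), both without overlap. The complement receptor gene Cr2 (edgeR log2 fold change 0.43, adjusted p = 0.44) and the sphingosine receptor gene S1pr1 (edgeR log2 fold change -0.12, adjusted p = 0.9) overlapped.

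Of the 6 marginal zone calls, Plxnd1 held in all 12 leave-one-out fits. Plxnd1 and Cd9 lie within 10 Mb of Chd4 on chromosome 6. In that stretch 7 of 208 tested genes were called (3.37%, against 1.14% of all autosomal genes). The part of this position in their values was not tested. Cd1d1 lost its call without WT 0 hr replicate 1 (adjusted p = 0.061). Zc3h12c lost its call without WT 0 hr replicates 2 or 3 or KO 0 hr replicate 6 (adjusted p = 0.055 to 0.13). Cd9 lost its call without WT 0 hr replicates 1 or 3, KO 0 hr replicates 4 or 5 or WT 48 hr replicate 7 (adjusted p = 0.051 to 0.12). Marcks lost its call without WT 0 hr replicates 1, 2 or 3, KO 0 hr replicates 4 or 5 or WT 48 hr replicates 7 or 9 (adjusted p = 0.051 to 0.13). Cd36 lost its call in 9 of 12 leave-one-out fits (adjusted p = 0.052 to 0.18), all but those lacking KO 0 hr replicate 6 or KO 48 hr replicates 11 or 12. The count of 6 became 2 when WT 0 hr replicate 1 or 3 was left out, 3 when WT 0 hr replicate 2, KO 0 hr replicate 4, KO 0 hr replicate 5 or WT 48 hr replicate 7 was, and 1, Marcks, with the 6 libraries alone. In bulk samples more cells of a type and more RNA per cell cannot be told apart.

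**Figure D3:**
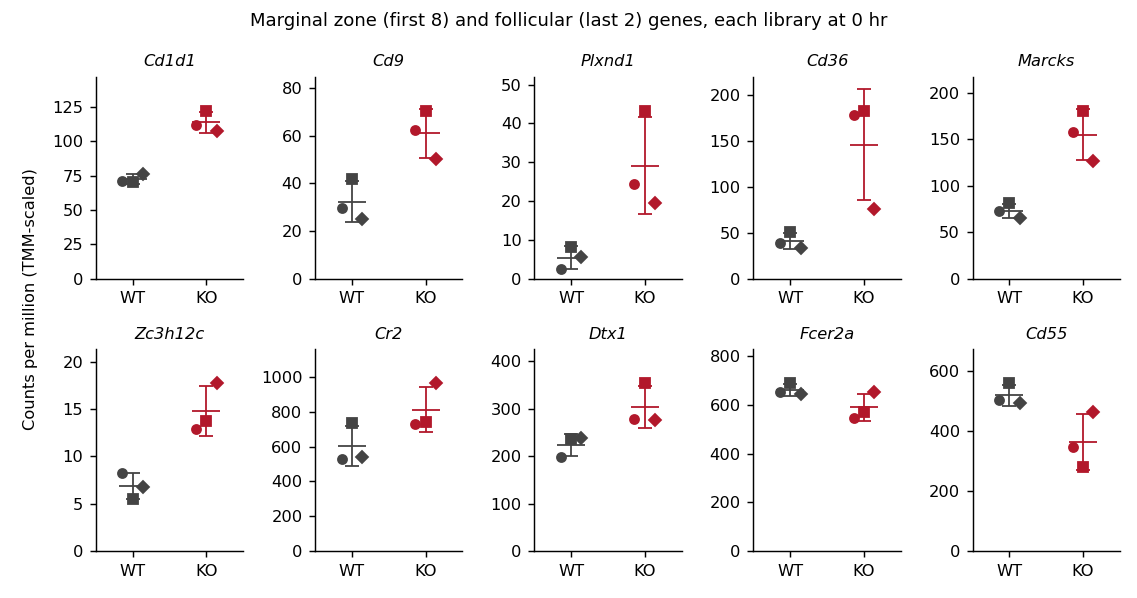
Level in CPM (TMM-scaled, linear axes from 0) of 8 marginal zone genes and 2 follicular genes (Fcer2a and Cd55) in each library at 0 hr, with WT replicates 1, 2 and 3 in grey and KO replicates 4, 5 and 6 in red as circle, square and diamond, and the group mean and SD (n = 3). The first 6 panels are the called genes, with KO above WT in each; in the Cd55 panel KO replicate 6, at 462 CPM, lies just under the lowest WT library, at 493 CPM.

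Follicular cells recirculate through lymph nodes, and germinal center cells divide and mutate their receptors. Of 13 follicular genes 0 passed (edgeR), 10 were negative, the median was -0.31, DESeq2 and limma-voom called 0, and 6 had an unadjusted p below 0.05. Cd55, which protects cells from complement, was at 503, 559 and 493 CPM in WT and 345, 278 and 462 CPM in KO (edgeR log2 fold change -0.52, adjusted p = 0.35). Fcer2a, the low-affinity IgE receptor CD23, overlapped at 651, 689.7 and 644 CPM in WT and 547, 569 and 654 CPM in KO (edgeR log2 fold change -0.17, adjusted p = 0.75). Of 15 germinal center genes 0 passed (edgeR), 14 were negative, the median was -0.47, DESeq2 called 3, limma-voom called 0, and 9 had an unadjusted p below 0.05. Cd83, which stabilises MHC class II on the surface, was at 474, 633 and 453 CPM in WT and 318, 433 and 378 CPM in KO (edgeR log2 fold change -0.47, adjusted p = 0.17). Bcl6, the regulator of germinal center cells, was at 56.6, 56.8 and 56.2 CPM in WT and 32.5, 39.02 and 75.7 CPM in KO (edgeR log2 fold change -0.20, adjusted p = 0.9), with KO replicate 6 above all WT libraries. Without KO 0 hr replicate 6 the germinal center list had 5 calls and the follicular list 0.

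Plasma cells secrete antibody, and B-1 cells are innate-like B cells. Of 22 plasma cell genes 2 rose and 0 fell, with a median log2 fold change of 0.16. Sdc1, which encodes the plasma cell marker syndecan-1, was at 10.5, 10 and 7.12 CPM in WT and 12.6, 21.6 and 21.9 CPM in KO (edgeR log2 fold change 1.02, SE 0.23, adjusted p = 0.048). Tnfrsf13b, the TACI receptor for BAFF and APRIL, was at 55.2, 69.1 and 53.9 CPM in WT and 85.1, 94.3 and 96.4 CPM in KO (edgeR log2 fold change 0.63, SE 0.11, adjusted p = 0.016). Jchain, which joins IgM and IgA, was at 234, 314 and 211 CPM in WT and 380.1, 645 and 369 CPM in KO without overlap but was not called (edgeR log2 fold change 0.88, adjusted p = 0.2). Among 14 genes of age-associated cells 2 rose, 1 of them Tnfrsf13b, and 0 fell, with 4 negative and a median of 0.165. Tbx21, given with the heavy-chain genes above, had a negative log2 fold change and was not called. Among 14 genes of B-1 cells the transcription factor gene Arid3a rose and 0 fell, with 6 negative and a median of 0.10. Arid3a was at 19.6, 20.9 and 22.03 CPM in WT and 31.6, 49.1 and 29.1 CPM in KO (edgeR log2 fold change 0.81, SE 0.17, adjusted p = 0.031). The interleukin 5 receptor gene Il5ra, typical of B-1 cells and singled out after its values were seen (chromosome 6, 106710357 to 106749037), was at 22.04, 26.9 and 22.9 CPM in WT and 74.4, 112 and 53.4 CPM in KO (edgeR log2 fold change 1.74, SE 0.23, adjusted p = 0.0017). It held in all 12 leave-one-out fits. Il5ra lies within 25 Mb of Chd4, where 11 of 344 tested genes were called (3.2%, against 1.14% of all autosomal genes). The part of this position in its values was not tested. Tnfrsf13b lost its call without WT 0 hr replicate 1 (adjusted p = 0.098) or WT 0 hr replicate 3 (adjusted p = 0.11). Sdc1 lost its call in 10 of 12 leave-one-out fits (adjusted p = 0.062 to 0.24), all but those lacking KO 0 hr replicate 4 or KO 48 hr replicate 12. Arid3a lost its call in 8 of 12 leave-one-out fits (adjusted p = 0.054 to 0.15), all but those lacking KO 0 hr replicates 4, 5 or 6 or KO 48 hr replicate 12. The counts of 2 plasma cell, 2 age-associated and 1 B-1 genes became 4, 4 and 5 without KO 0 hr replicate 6, and 0 in each list when WT 0 hr replicate 1 or replicate 3 was left out. With the 6 libraries alone each was 0, and DESeq2 called 5, 4 and 4.

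Genes of the Notch pathway, the receptor pathway that directs cells to the marginal zone, were read from a list written after values were seen. Of 28 tested 2 rose and 0 fell, with a median of 0.14. Hes5, a canonical Notch target, was at 7.07, 8.36 and 7.75 CPM in WT and 16.02, 17.4 and 11.6 CPM in KO (edgeR log2 fold change 0.96, SE 0.19, adjusted p = 0.026), and its relative Hes6 at 56.02, 51.2 and 61.6 CPM in WT and 88.8, 86.1 and 81.7 CPM in KO (edgeR log2 fold change 0.60, SE 0.12, adjusted p = 0.021). Notch2, the receptor that marginal zone cells need, overlapped between groups at 163, 200.2 and 193 CPM in WT and 94.95, 194 and 135 CPM in KO (edgeR log2 fold change -0.39, adjusted p = 0.62). Hes6 lost its call without WT 0 hr replicates 1 or 2 or KO 0 hr replicate 4 (adjusted p = 0.056 to 0.094). Hes5 lost its call without WT 0 hr replicates 1, 2 or 3, KO 0 hr replicates 4 or 5 or WT 48 hr replicates 7 or 9 (adjusted p = 0.05 to 0.15).

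The 15 largest rises among genes at 5 CPM or more in KO included several with a low level in WT. Rbm45, an RNA-binding protein (chromosome 2, 76369984 to 76383768), was at 3.30, 4.13 and 3.79 CPM in WT and 28.4, 35.2 and 38.2 CPM in KO (edgeR log2 fold change 3.18, SE 0.15, adjusted p = 1.1e-07). Tmem121, a membrane protein gene beside the heavy-chain locus (chromosome 12, 113185930 to 113189523), was at 0.614, 0.949 and 1.25 CPM in WT and 17.6, 17.5 and 12.3 CPM in KO (edgeR log2 fold change 4.07, SE 0.72, adjusted p = 0.013). Rapgef3, the cyclic AMP-activated exchange factor EPAC1 (chromosome 15, 97744770 to 97767972), was at 2.42, 3.62 and 3.23 CPM in WT and 22, 22.2 and 28.5 CPM in KO (edgeR log2 fold change 2.97, SE 0.26, adjusted p = 3.8e-05). In all 3 genes the lowest KO library lay far above the highest WT library. Nxpe2 (chromosome 9, 48318006 to 48353454) was at 4.23, 5.40 and 5.43 CPM in WT and 26.5, 16.5 and 25.7 CPM in KO (edgeR log2 fold change 2.19, SE 0.26, adjusted p = 0.00067). Hebp1, a heme-binding protein gene, was at 2.30, 3.16 and 2.79 CPM in WT and 22.2, 14.1 and 9.14 CPM in KO (edgeR log2 fold change 2.46, SE 0.42, adjusted p = 0.012). Mcoln3, an endolysosomal cation channel, was at 2.28, 4.72 and 1.79 CPM in WT and 13.2, 17.9 and 9.75 CPM in KO (edgeR log2 fold change 2.22, SE 0.37, adjusted p = 0.01), and Sla2, an adaptor that dampens antigen receptor signalling, at 2.16, 2.87 and 1.76 CPM in WT and 10.7, 14.8 and 5.41 CPM in KO (edgeR log2 fold change 2.19, SE 0.36, adjusted p = 0.0091). Plekhg5, a guanine nucleotide exchange factor gene, was at 1.49, 1.66 and 1.67 CPM in WT and 11.8, 13.9 and 3.78 CPM in KO (edgeR log2 fold change 2.61, SE 0.39, adjusted p = 0.0046), and the kinesin light chain gene Klc3 at 0.579, 0.929 and 1.16 CPM in WT and 6.40, 7.67 and 1.24 CPM in KO (edgeR log2 fold change 2.52, SE 0.53, adjusted p = 0.038). In Plekhg5 and Klc3 KO replicate 6 lay close to WT and the other KO libraries did not.

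Of these, Rbm45, Rapgef3, Nxpe2 and Plekhg5 held in all 12 leave-one-out fits. Hebp1 lost its call without WT 0 hr replicate 1 (adjusted p = 0.079) or WT 0 hr replicate 3 (adjusted p = 0.074). Mcoln3 lost its call without WT 0 hr replicate 1 (adjusted p = 0.071) or WT 0 hr replicate 3 (adjusted p = 0.063). Sla2 lost its call without WT 0 hr replicate 1 (adjusted p = 0.055) or WT 0 hr replicate 3 (adjusted p = 0.069). Tmem121 lost its call without WT 0 hr replicates 1, 2 or 3 or KO 0 hr replicate 4 (adjusted p = 0.053 to 0.091). Klc3 lost its call in 10 of 12 leave-one-out fits (adjusted p = 0.052 to 0.2), all but those lacking KO 0 hr replicate 6 or KO 48 hr replicate 12. The other genes of the 15 largest rises were Plxnd1 and Prob1 (2.26 on the log2 scale) and 4 gene models without a curated name. Wnt6, a secreted Wnt ligand singled out after its values were seen, had 0 counts in all WT libraries together and 77 in KO, at least 22.7-fold higher taking a floor of 3 counts for each group. Its only transcript model was at 0.536, 0.689 and 0.0717 CPM in KO replicates 4, 5 and 6. The pooled count therefore came mostly from KO replicates 4 and 5, and KO replicate 6 lay close to WT. Wnt6 lost its call in 10 of 12 leave-one-out fits (adjusted p = 0.056 to 0.15), all but those lacking KO 0 hr replicate 6 or KO 48 hr replicate 12.

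The 15 largest falls also held genes outside the interferon and Serpina3 lists. Prss12, the secreted serine protease neurotrypsin (chromosome 3, 123446913 to 123506597), was at 21.4, 16.98 and 18.9 CPM in WT and 2.22, 2.06 and 5.23 CPM in KO (edgeR log2 fold change -2.58, SE 0.38, adjusted p = 0.0038). Ryr2, a calcium release channel of heart and brain (chromosome 13, 11553102 to 12106945), was at 9.62, 7.87 and 7.19 CPM in WT and 1.25, 1.97 and 2.90 CPM in KO (edgeR log2 fold change -2.00, SE 0.32, adjusted p = 0.0075). Ahcy, the enzyme that clears S-adenosylhomocysteine after methylation reactions (chromosome 2, 155059310 to 155074497), was at 22.9, 30.6 and 20.6 CPM in WT and 5.45, 7.73 and 10.2 CPM in KO (edgeR log2 fold change -1.66, SE 0.19, adjusted p = 0.00054). All 3 held in all 12 leave-one-out fits. Hyou1, a chaperone of the endoplasmic reticulum, was at 57.4, 70.1 and 68.6 CPM in WT and 13.7, 32.8 and 26.4 CPM in KO (edgeR log2 fold change -1.43, SE 0.24, adjusted p = 0.01), and was the 1 called of 29 unfolded protein response genes. Gadd45g, a stress-induced growth arrest gene, was at 49.5, 35.5 and 51.5 CPM in WT and 22.3, 13.99 and 20.9 CPM in KO (edgeR log2 fold change -1.25, SE 0.20, adjusted p = 0.0079). The histone genes Hist1h2bg, at 7.42, 6.62 and 8.15 CPM in WT and 2.73, 1.68 and 2.35 CPM in KO (edgeR log2 fold change -1.72, SE 0.29, adjusted p = 0.01), and Hist1h2ac, at 7, 7.77 and 5.06 CPM in WT and 1.86, 2.46 and 1.97 CPM in KO (edgeR log2 fold change -1.65, SE 0.26, adjusted p = 0.0064), were the 2 called of 56 replication-dependent histone genes in a list written after values were seen. That list had 45 negative members and a median of -0.35. Of 27 mitosis genes 24 were negative (median -0.19) and of 31 DNA replication genes 19 were (median -0.10). In those lists edgeR and limma-voom called 0, DESeq2 called 2 and 1, and 4 in each had an unadjusted p below 0.05. Histone genes are similar in sequence, and the split of reads is uncertain. Hyou1 lost its call without WT 0 hr replicate 3 (adjusted p = 0.051). Gadd45g lost its call without WT 0 hr replicate 3 (adjusted p = 0.05). Hist1h2bg lost its call without WT 0 hr replicate 3 (adjusted p = 0.061).

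Among the most abundant genes called, several act in signalling. Syk, the kinase that starts B cell receptor signalling (chromosome 13, 52583173 to 52648792), was at 767, 823 and 824 CPM in WT and 472, 582 and 587 CPM in KO (edgeR log2 fold change -0.56, SE 0.12, adjusted p = 0.036). Cd81, a tetraspanin of the B cell surface (chromosome 7, 143052739 to 143067934), was at 174, 213 and 164 CPM in WT and 257, 274 and 265 CPM in KO (edgeR log2 fold change 0.53, SE 0.11, adjusted p = 0.028). They were the 2 called of 30 B cell receptor signalling genes, whose median was 0.00. Itpr2, a receptor that releases calcium from the endoplasmic reticulum (chromosome 6, 146108299 to 146502223), was at 226, 180 and 212 CPM in WT and 371, 318 and 322 CPM in KO (edgeR log2 fold change 0.71, SE 0.13, adjusted p = 0.017). Lrrk2, a kinase that acts on Rab GTPases (chromosome 15, 91673175 to 91816120), was at 469.7, 491 and 469.6 CPM in WT and 237, 272 and 336 CPM in KO (edgeR log2 fold change -0.76, SE 0.12, adjusted p = 0.0071). Ly6a, the interferon-inducible surface antigen Sca-1, was at 337, 383 and 289 CPM in WT and 237, 169 and 171 CPM in KO (edgeR log2 fold change -0.81, SE 0.17, adjusted p = 0.033). Lrrk2 held in all 12 leave-one-out fits. Itpr2 lost its call without WT 0 hr replicates 2 or 3 or KO 0 hr replicate 4 (adjusted p = 0.054 to 0.074). Cd81 lost its call without WT 0 hr replicates 1 or 3, KO 0 hr replicate 5, WT 48 hr replicates 7, 8 or 9 or KO 48 hr replicate 10 (adjusted p = 0.056 to 0.16). Syk lost its call in 9 of 12 leave-one-out fits (adjusted p = 0.055 to 0.14), all but those lacking KO 0 hr replicate 6, WT 48 hr replicate 9 or KO 48 hr replicate 12. Ly6a lost its call in 9 of 12 leave-one-out fits (adjusted p = 0.051 to 0.12), all but those lacking KO 0 hr replicate 4 or KO 48 hr replicates 10 or 12.

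Of 15 regulators read whatever their value, Chd4 among them, 2 passed. Trp53, which encodes p53 (chromosome 11, 69580359 to 69591873), was at 38.9, 37.8 and 41.98 CPM in WT and 84.2, 85.97 and 119.5 CPM in KO (edgeR log2 fold change 1.29, SE 0.14, adjusted p = 0.0003), with KO replicate 6 the highest. It held in all 12 leave-one-out fits. Of 27 p53 targets and regulators tested, Trp53 itself rose and Gdf15 fell, and the median was 0.09. Gdf15, a stress cytokine, had 34 counts in all WT libraries together and 0 in KO, at least 12.8-fold lower taking a floor of 3 counts for each group. Gdf15 lost its call without WT 0 hr replicate 3 (adjusted p = 0.05). The abundant p53 target Ccng1 overlapped at 78.95, 122 and 86.9 CPM in WT and 86.95, 91.8 and 128 CPM in KO (edgeR log2 fold change 0.09, adjusted p = 0.93), as did Cdkn1a (edgeR log2 fold change -0.21, adjusted p = 0.89). Ikzf1, the Ikaros gene, was at 173, 186 and 183 CPM in WT and 245, 269 and 235 CPM in KO (edgeR log2 fold change 0.47, SE 0.10, adjusted p = 0.041). Ikzf1 lost its call in 10 of 12 leave-one-out fits (adjusted p = 0.053 to 0.2), all but those lacking KO 0 hr replicate 6 or KO 48 hr replicate 12. Pax5 (edgeR log2 fold change 0.08, adjusted p = 0.94), Ebf1 (edgeR log2 fold change -0.26, adjusted p = 0.45), Ikzf3 (edgeR log2 fold change -0.21, adjusted p = 0.61), Irf4 (edgeR log2 fold change 0.26, adjusted p = 0.79), Prdm1 (edgeR log2 fold change -0.16, adjusted p = 0.93), Xbp1 (edgeR log2 fold change -0.12, adjusted p = 0.83) and Myc (edgeR log2 fold change -0.05, adjusted p = 0.94) did not pass. Tle3, a Groucho co-repressor singled out after its values were seen (chromosome 9, 61372366 to 61418497), was at 23.8, 23.3 and 24.1 CPM in WT and 54.4, 78.8 and 65.8 CPM in KO (edgeR log2 fold change 1.48, SE 0.13, adjusted p = 5.1e-05). It held in all 12 leave-one-out fits.

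CHD4 works in a large complex. Of 17 tested NuRD partners 0 passed (edgeR), DESeq2 and limma-voom called 0, and 0 had an unadjusted p below 0.05, with a median of 0.10. The same counts held for 31 SWI/SNF and ISWI genes, with a median of -0.03. The most abundant NuRD partner, Mta2, was at 216, 245 and 228 CPM in WT and 220.3, 334 and 259 CPM in KO (edgeR log2 fold change 0.24, adjusted p = 0.59), and the deacetylase Hdac1 at 160.4, 194 and 164 CPM in WT and 164, 181 and 193 CPM in KO (edgeR log2 fold change 0.05, adjusted p = 0.94). Of 31 Polycomb and DNA methylation genes 0 passed (edgeR), DESeq2 called 2, limma-voom called 0, and 6 had an unadjusted p below 0.05.

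Of 32 oxidative phosphorylation genes 0 passed (edgeR), 28 were positive with a median of 0.12, and 3 had an unadjusted p below 0.05, with 0 by DESeq2 or limma-voom. Of 20 heat shock genes 0 passed (edgeR), 15 were positive with a median of 0.27, DESeq2 called 1, limma-voom called 0, and 5 had an unadjusted p below 0.05. The inducible Hspa1a was at 399, 291 and 395 CPM in WT and 715, 614 and 445 CPM in KO and its near copy Hspa1b at 939, 686 and 1015 CPM in WT and 1387, 1089 and 1032 CPM in KO, both without overlap (edgeR log2 fold change 0.71, adjusted p = 0.21, and edgeR log2 fold change 0.41, adjusted p = 0.6). Of 23 glycolysis genes the muscle-type phosphofructokinase gene Pfkm rose, at 1.63, 1.92 and 1.20 CPM in WT and 4.08, 4.95 and 3.31 CPM in KO (edgeR log2 fold change 1.38, SE 0.25, adjusted p = 0.016). Pfkm lost its call without WT 0 hr replicates 1 or 3 or KO 0 hr replicate 5 (adjusted p = 0.054 to 0.11). Of 22 homing receptor genes Ackr3, a scavenger of the chemokine CXCL12, rose, at 3, 5.38 and 2.35 CPM in WT and 15.6, 13.4 and 5.97 CPM in KO (edgeR log2 fold change 1.71, SE 0.35, adjusted p = 0.031). Ackr3 lost its call in 9 of 12 leave-one-out fits (adjusted p = 0.051 to 0.17), all but those lacking WT 0 hr replicate 2, KO 0 hr replicate 6 or KO 48 hr replicate 12. Of 14 stromal and endothelial genes Cxcl13, the chemokine of B cell follicles, fell, at 1.39, 2.69 and 1.25 CPM in WT and 0.399, 0.678 and 0.367 CPM in KO (edgeR log2 fold change -1.87, SE 0.41, adjusted p = 0.048). Cxcl13 lost its call in 11 of 12 leave-one-out fits (adjusted p = 0.054 to 0.21), all but those lacking KO 48 hr replicate 12. By edgeR 25 lists, with 480 distinct tested genes, had 0 calls, where 1.14% of all autosomal genes were called. They were grouped because they had 0 calls, so that 0 is not a result. Among them were dendritic cell, platelet, MHC class II, Toll-like receptor, immediate early, BCL2 family, mitosis, DNA replication, class switch and sterol synthesis genes. Of the 480, 75 had an unadjusted p below 0.05, as 11.3% of all autosomal genes did. DESeq2 called 25 (4.13% of all), the likelihood ratio test 17 (3.05%) and limma-voom 1 (1.29%).

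Transcript models showed where some of these gene-level changes lay. Transcript shares within a gene come from Salmon's division of reads and were not tested. For Trp53 the model uc007jqn.2 went from 18.3 ± 0.369 to 68.8 ± 13.4 CPM (SD, n = 3 each, log2 fold change 1.91, edgeR adjusted p = 0.00052 with each transcript as a feature). Its share of the gene was 46.8% in WT and 71.7% in KO, while uc011xww.1 held 25.2% and 7.37%. For Tmem87a, a Golgi protein gene singled out after its values were seen, uc033hps.1 went from 4.08 ± 1.44 to 23.3 ± 2.50 CPM (edgeR log2 fold change 2.51, adjusted p = 0.037), and its share was 18.3% in WT and 43.4% in KO. The model uc008lvq.2 of Tmem87a, at 11.8 ± 1.70 and 7.57 ± 1.37 CPM, did not pass (log2 fold change -0.64, edgeR adjusted p = 0.7). For Il5ra, uc009dcx.1 went from 11.7 ± 3.43 to 49.9 ± 20.6 CPM (edgeR log2 fold change 2.09, adjusted p = 0.038). With transcripts as features 67 autosomal genes had a called transcript.

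Of the 180 calls with a position, 65 lay within 1 Mb of another call, which is 36.1%, in 27 groups, of which 18 held calls in 1 direction only. Of all 15448 tested genes with a position, 22.2% had another called gene within 1 Mb. The largest groups were the 4 Serpina3 genes, 6 genes of the MHC region on chromosome 17 (Sapcd1 and Ddah2 higher, H2-Q5, H2-Q6, H2-Q7 and H2-T10 lower), 4 risers on chromosome 15 (Endou, Rapgef3, Pfkm and Tuba1c) and 4 risers on chromosome 2 (Exd1, Ltk, Pla2g4d and Tmem87a). Stat4, a signalling transcription factor gene on chromosome 1, fell, and was at 86.8, 111 and 82.1 CPM in WT and 58.1, 59.8 and 67.4 CPM in KO (edgeR log2 fold change -0.59, SE 0.12, adjusted p = 0.031). Stat4 lost its call in 8 of 12 leave-one-out fits (adjusted p = 0.059 to 0.1), all but those lacking WT 0 hr replicate 3, KO 0 hr replicate 6 or KO 48 hr replicates 11 or 12. Chromosome 13 had 6 calls of 668 genes tested (0.898%), all lower, and chromosome 16 had 6 of 519 (1.16%), all higher.

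Chromosome 6 holds the targeted gene. Within 25 Mb of Chd4, 11 of 344 tested genes were called (3.2%, against 1.14% of all autosomal genes), and on the rest of chromosome 6 edgeR called 0 of 477 (DESeq2 called 4 and limma-voom 0, and 44 had an unadjusted p below 0.05). Within 2 Mb the count was 3 of 57 (5.26%), namely Ncapd2, Mrpl51 and Cd9, all higher. Ncapd2, a condensin subunit gene near Chd4 (chromosome 6, 125168007 to 125191701), was at 32.3, 34.2 and 27.6 CPM in WT and 46.9, 66.3 and 54.6 CPM in KO (edgeR log2 fold change 0.84, SE 0.14, adjusted p = 0.0087). Mrpl51, a mitochondrial ribosomal protein gene (chromosome 6, 125191801 to 125196269), was at 32.8, 35.4 and 29.5 CPM in WT and 75.4, 52.4 and 67.5 CPM in KO (edgeR log2 fold change 1.00, SE 0.14, adjusted p = 0.0029). The others within 25 Mb included Plxnd1, Rassf4, Il5ra, Smim10l1, Hebp1, Itpr2 and the antisense model Gm15987, which was the 1 that fell. Without strand, the reads of Gm15987 and its partner cannot be told apart. Mrpl51 held in all 12 leave-one-out fits. Ncapd2 lost its call without WT 0 hr replicate 3 (adjusted p = 0.06).

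**Figure D4:**
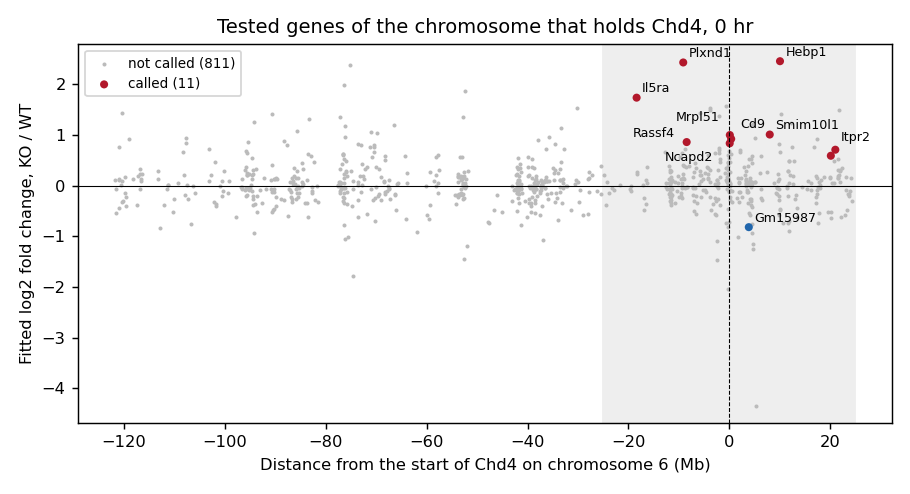
Fitted log2 fold change (KO over WT at 0 hr) of each tested gene of chromosome 6 with a position, against its distance from the start of Chd4 in Mb (dashed line); coloured points are the 11 genes called by edgeR (red higher, blue lower) and the shaded band is 25 Mb to either side. All 11 coloured points lie in the band, 10 of them above zero.

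The 48 hr libraries gave the same contrast in libraries that are not among the 6 above, although all 12 entered 1 fit. Sex-linked genes moved with the label there too, with Xist at 75.4, 83.7 and 76.96 CPM in WT and 0.961, 1 and 0.856 CPM in KO. Of the 116 risers 43 (37.1%) were also called higher in KO at 48 hr, where 1.6% of all autosomal genes were, and 103 kept a positive sign. Of the 67 fallers 14 (20.9%) were also called lower, where 0.556% of all were, and 51 kept a negative sign. Their median log2 fold changes at 48 hr were 0.61 and -0.31. Rbm45 was at 5.18, 5.97 and 5.53 CPM in WT and 69.4, 69.4 and 58.9 CPM in KO after stimulation (log2 fold change 3.57, edgeR adjusted p = 2.9e-08). Trp53 was at 55.3, 61.1 and 61.6 CPM in WT and 185, 176 and 221 CPM in KO (edgeR log2 fold change 1.71, SE 0.14, adjusted p = 1.8e-05), and Ahcy at 204, 191 and 190.3 CPM in WT and 68.7, 68.4 and 73.3 CPM in KO (edgeR log2 fold change -1.48, SE 0.19, adjusted p = 0.001). Gbp6 (-1.31, adjusted p = 0.004 by edgeR), Iigp1 (-2.79, adjusted p = 2.6e-05), Trim34a (-0.97, adjusted p = 0.00029) and Serpina3g (-2.19, adjusted p = 5e-07) also were lower. Others did not pass at 48 hr: Tgtp1 (-0.59, adjusted p = 0.092), Tgtp2 (-0.56, adjusted p = 0.089), Nlrc5 (-0.47, adjusted p = 0.24) and Cxcl10, whose value was positive (0.39, adjusted p = 0.55). The class I list had 0 calls at 48 hr by edgeR, with a median of -0.13 (DESeq2 called 1, limma-voom called 0, and 6 had an unadjusted p below 0.05). Of the interferon signalling genes, Irf1 was lower (-0.61, adjusted p = 0.013), and Irf9 (-0.07, adjusted p = 0.81) did not pass. Of the marginal zone genes, Cd1d1, Cd9, Cd36 and Zc3h12c were also higher at 48 hr (0.59, 1.13, 2.30 and 1.14, edgeR adjusted p = 0.024, 0.005, 0.0061 and 0.021), and Marcks (0.63) and Plxnd1 (0.7) did not pass.

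The KO against WT difference itself differed between 48 hr and 0 hr for 12 of the 183 genes by edgeR's interaction test, which called 0.131% of all autosomal genes. That test contains the 0 hr difference that chose the 183, so a larger share among them is built in. Gbp2b changed direction: it was higher in KO at 0 hr and lower at 48 hr, at 78.3, 87.9 and 82.3 CPM in WT and 21.1, 14.2 and 21.8 CPM in KO (edgeR log2 fold change -2.12, SE 0.34, adjusted p = 0.005). Gm6460 was lower at 0 hr and higher at 48 hr. Stat4 was lower at both times and further at 48 hr, at 414, 431 and 414 CPM in WT and 79.4, 70.99 and 85.1 CPM in KO (edgeR log2 fold change -2.42, SE 0.13, adjusted p = 1.5e-07). Shisa8, Fam129c and Akr7a5 were higher at 0 hr and not called at 48 hr (-0.17, -0.07 and -0.42, edgeR adjusted p = 0.64, 0.88 and 0.1). Arrdc3, a regulator of receptor traffic, was lower at 0 hr and higher at 48 hr (0.62, edgeR adjusted p = 0.03), Tmem87a was higher at both and further at 48 hr (2.72, edgeR adjusted p = 3.9e-07), and Ighg1 was lower at both and less so at 48 hr (-1.16, edgeR adjusted p = 0.033). Gvin1, Ulbp1 and Ryr2 were lower at 0 hr and not called at 48 hr (-0.31, 0.65 and 0.64, edgeR adjusted p = 0.1, 0.1 and 0.38). The count of 12 was 40 without KO 0 hr replicate 6, 6 without KO 48 hr replicate 11 or WT 0 hr replicate 3, 4 without KO 48 hr replicate 10 or WT 0 hr replicate 1, and 3 without WT 48 hr replicates 8 or 9. Leaving out WT 48 hr replicate 7 gave 2.

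**Figure D5:**
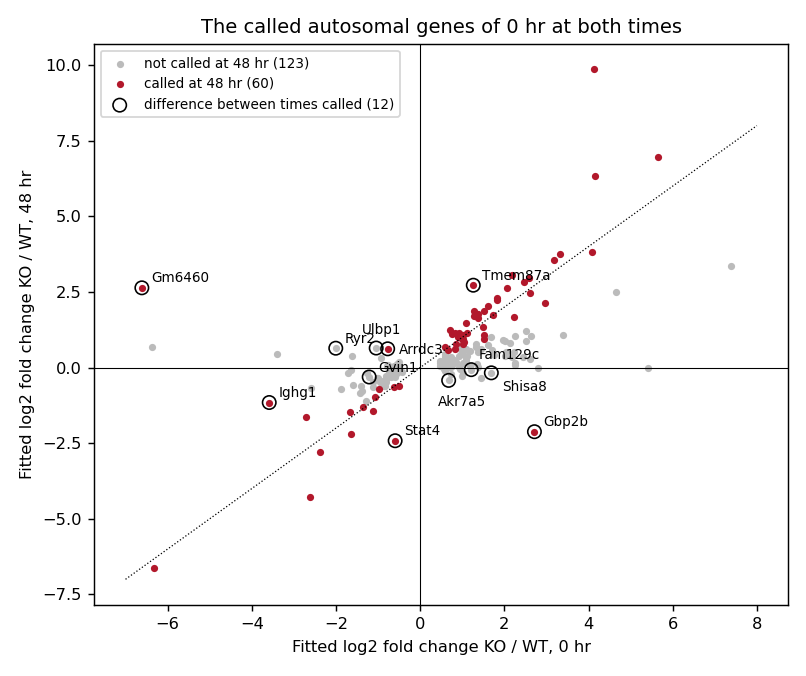
Fitted log2 fold change (KO over WT) at 0 hr, x axis, and at 48 hr, y axis, of the 183 autosomal genes called at 0 hr; red points were also called at 48 hr, black circles mark the 12 genes whose difference between the times was called, and the dotted line marks equal change. Of the red points 43 lie in the upper right quadrant and 14 in the lower left, and Gbp2b and Gm6460 lie in quadrants of opposite sign.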

How the data were processed

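The authors deposited 1 estimated count per transcript and library, given as a whole number. Named in the submitters' processing notes are bcl2fastq 2.20.0.422, Trimmomatic 0.36, Salmon 0.8.2 and DESeq2 1.14.1, with the mm10 build. Their roles and settings are not given in the sources used here. Salmon splits reads between alike transcripts, which leaves values of near copies uncertain.

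Counts of 63759 transcripts were summed by gene name, after outer spaces were trimmed, to 32699 genes. No row lacked a name. edgeR 4.0.16 (R 4.3.3) kept 19125 genes (filterByExpr), scaled libraries by TMM and fitted all 12 libraries as 4 groups (quasi-likelihood, robust, 8 residual degrees of freedom). P-values were adjusted over all 19125 by Benjamini and Hochberg, and a call is an adjusted p below 0.05. Positions came from GENCODE M21 on mm10 (15481 autosomal genes tested) or, by RefSeq symbol, only the chromosome (534). X- and Y-linked genes (583) and 2527 names that were not placed stayed in the fit and out of the description, the latter with 15 calls. CPM uses the scaled library sizes. The procedure was tested on simulated data.

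The members and lists were chosen with earlier results of these data known. Named were Chd4 and 14 standing regulators, the 15 largest rises and 15 largest falls whose higher group averaged at least 5 CPM and whose groups did not overlap, the 10 most abundant calls, called list members, and up to 4 abundant uncalled members of a described list. Alternatives were DESeq2 1.42.0, limma-voom (limma 3.58.1), the likelihood ratio test, other scalings and filters, dispersion without the robust option, the 6 libraries at 0 hr alone with and without KO replicate 6, transcripts as features, and each library left out. Results of some genes counted in the lists are not reported here. Bounds use a floor of 3 counts and cover counting error only. Figures were drawn with matplotlib 3.10.9.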

Additional observations from a re-analysis of the deposited data

Results flagged for a closer look

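For 12 of the 183 genes called at 0 hr the KO against WT difference differed between 48 hr and 0 hr. The test was edgeR's interaction test (adjusted p below 0.05 over all genes tested), which contains the 0 hr difference that chose the 183. The value is the 48 hr minus the 0 hr log2 fold change, so a negative value means lower in KO at 48 hr relative to 0 hr. It was -4.83 (SE 0.53, edgeR adjusted p = 0.0027) for the GTPase Gbp2b, -1.86 (SE 0.21, edgeR adjusted p = 0.0027) for the receptor auxiliary gene Shisa8, -1.82 (SE 0.17, edgeR adjusted p = 0.0013) for Stat4, -1.28 (SE 0.19, edgeR adjusted p = 0.022) for the B cell gene Fam129c and -1.10 (SE 0.17, edgeR adjusted p = 0.029) for the aldehyde reductase gene Akr7a5. It was 0.90 (SE 0.13, edgeR adjusted p = 0.02) for Gvin1, 1.39 (SE 0.19, edgeR adjusted p = 0.015) for Arrdc3, 1.46 (SE 0.21, edgeR adjusted p = 0.022) for Tmem87a, 1.69 (SE 0.26, edgeR adjusted p = 0.029) for the NKG2D ligand gene Ulbp1, 2.43 (SE 0.41, edgeR adjusted p = 0.044) for Ighg1 and 2.65 (SE 0.45, edgeR adjusted p = 0.044) for Ryr2. For the gene model Gm6460 it was 9.25 (SE 1.11, edgeR adjusted p = 0.015). Gm6460 had 41 counts in all WT libraries together and 0 in KO at 0 hr, at least 15.4-fold lower taking a floor of 3 counts for each group, so its fitted difference depends on the prior count.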

How the results depend on the processing

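The 183 autosomal calls (116 higher, 67 lower) became 62 (40, 22) with the 6 libraries at 0 hr alone, 324 (257 higher) with those libraries and no KO replicate 6, 579 (362, 217) by DESeq2, 488 (313, 175) by the likelihood ratio test and 67 (39, 28) with transcripts as features (each gene's transcript of lowest p). With 1 library left out they ranged from 64 to 374 (higher 34 to 259, lower 30 to 115). The 57 calls shared in direction with 48 hr became 160 by DESeq2, 147 by the likelihood ratio test and 24 with transcripts (31 to 107 with 1 library left out). The 12 interaction calls became 65, 52 and 1 (2 to 40). Of the calls 63.4% were higher in KO, with a range of 51.1% to 79.3% across settings. The cause of these shifts was not tested. Other scalings and filters, limma-voom and the non-robust fit kept the 3 counts of calls within 1.5 times.

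Chd4, uncalled at 0.02, was -0.013 with the 0 hr libraries and no KO replicate 6, -0.015 with upper-quartile scaling and -0.13 to 0.15 with 1 library left out. With transcripts its minor model uc009dtm.1 (3.9% of the gene in WT) was at -0.50, while the main model uc009dtk.1 (67.5%) was at -0.0026 and uc009dtl.1 (28.6%) at 0.14. Other uncalled genes also changed sign. With the 0 hr libraries and no KO replicate 6, Prdm1 was 0.059 and Myc 0.088. With 1 library left out, Prdm1 ranged from -0.47 to 0.035, Myc from -0.15 to 0.068, Bcl6 from -0.66 to 0.024 and Pax5 from -0.046 to 0.16. For Cdkn1a the minor model uc008bsh.1 (1.98% of the gene in WT) was at 2.91 with transcripts, and the main model uc008bsg.3 (98%) at -0.44, the sign of the gene. No called gene named by the rule changed sign in any setting run. Of these, 27 of 70 also passed with the 0 hr libraries alone, 45 of 72 with those and no KO replicate 6, 22 of 72 with transcripts, 71 of 71 by DESeq2 and 68 of 72 by limma-voom. No paired analysis was possible because the groups share no replicate number. Totals of 38956484 to 53189198 counts at 0 hr leave scarce genes such as Wnt6 on few counts.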
